A study of Mus musculus with 6 samples.

Results

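Integrins are the cell surface receptors through which cells grip the extracellular matrix. Each receptor pairs 1 alpha subunit with 1 beta subunit, and the pair decides which matrix protein is bound. Pairs with the beta 1 subunit are the main fibronectin and laminin receptors of the embryo, while pairs of the alpha v subunit bind vitronectin and other ligands that carry the same short recognition motif. In the early vasculature, endothelial cells use integrins to assemble along fibronectin and then to sit on a laminin-rich basement membrane. The genes described here are 10 integrin subunits: 7 alpha subunits (Itga3, Itga4, Itga5, Itga6, Itga8, Itga9 and Itgav) and 3 beta subunits (Itgb1, Itgb3 and Itgb5). They and the gene lists below were taken by name, with earlier results of these data known. The 10 are among 18193 genes with a probe set of a single symbol, and they were represented by 36 probe sets. Of these, 30 probe sets passed the filter on low signal and were tested, at least 2 for every gene, and 6 did not.

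Probe set signals came from Affymetrix mouse arrays, with 2 arrays in each of 3 groups. All samples were of the ICR strain at 8.5 days post coitum, with 3 to 4 somites, a stage before blood circulates. The groups were Flk1-positive cells (Flk1, the product of Kdr, is a VEGF receptor of endothelial cells and of the mesoderm they come from), Flk1 knockout (Flk1 KO) embryos, and wild-type (WT) embryos; both embryo groups were the embryo proper. The design text also lists Flk1+/GFP embryos, and a difference in genotype between the Flk1-positive cells and WT embryos cannot be told apart from the group. The labels give neither the number of animals behind an array nor the way the cells were sorted, so the p-values measure the spread between these arrays, which may be technical. The label of the cells was checked on 10 endothelial markers, including Pecam1, Cdh5 and Tek: all 10 rose in Flk1-positive cells against WT embryos, with signals summing to 46639.7 and 46699 in Flk1-positive cells, 1072 and 1024 in Flk1 KO embryos, and 3398 and 3181 in WT embryos. In a whole embryo, fewer cells of a type and less RNA per cell cannot be told apart. The number of arrays limits the precision.

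Of the 10 integrin subunit genes, 7 rose and 1 fell in Flk1-positive cells against WT embryos, each judged on its brightest probe set. Itga3, Itga4, Itga5, Itga6, Itga9, Itgb1 and Itgb3 rose, Itgb5 fell, and Itga8 and Itgav did not pass the test. Over all 14953 genes tested the same way, 12.6% rose and 18.1% fell. The 10 were listed with earlier results known, so these shares stand beside the counts and are not a test of the list. The median difference of the 10 genes was 1.08 on the log2(signal + 21.61) scale, against -0.09 over all genes. In Flk1 KO against WT embryos 0 of the 10 rose and 0 fell, where 0% of all genes rose and 0.154% fell. Differences throughout are log2 values ± SE from limma, which understate the change of dim genes, and adjusted p-values are limma's, corrected by Benjamini-Hochberg across every tested probe set, with a threshold of 0.05.

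**Figure D1:**
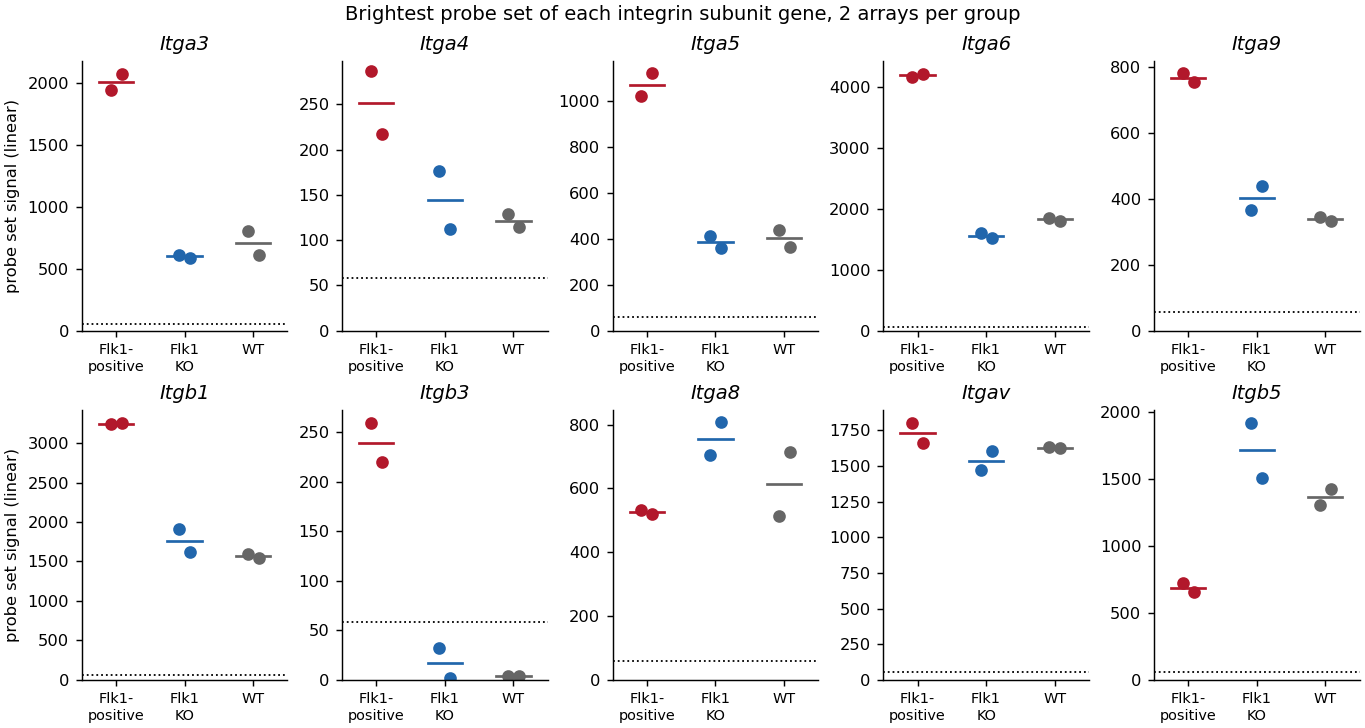
Probe set signal (linear, vertical axis from 0) of the brightest probe set of each of the 10 genes in Flk1-positive cells, Flk1 KO embryos and WT embryos; points are arrays, bars are group means over 2 arrays, and the dotted line is the background signal of 57.8. The Flk1-positive arrays stand above all embryo arrays for the 7 genes that rose and, by a small margin, for Itgav, which did not pass the test. For Itgb5 they stand below them. Such separation, here and gene by gene in the text, is not a test, and its share over all genes was not counted.

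Promoter windows from RefSeq (GRCm38.p6), running from 250 bases before to 50 after a gene's start, were matched by symbol for 8 of the 10 genes in 9 windows; Itga6 and Itgb3 had no entry. The 4 windows printed here belong to Itga5, Itgb1 and Itga4, which rose in Flk1-positive cells, and to Itgb5, which fell, so that the DNA next to genes of opposite direction can be read side by side. Capitals mark the GC box GGGCGG on either strand. Each sequence is printed in the direction of its gene.
Itga5 (chr15:103366742-103367041, minus strand): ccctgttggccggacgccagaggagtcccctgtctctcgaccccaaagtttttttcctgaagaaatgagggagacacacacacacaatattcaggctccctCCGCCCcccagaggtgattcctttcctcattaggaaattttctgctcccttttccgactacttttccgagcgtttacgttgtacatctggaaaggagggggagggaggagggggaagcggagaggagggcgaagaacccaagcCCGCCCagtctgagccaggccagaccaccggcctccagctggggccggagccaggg
Itgb1 (chr8:128685404-128685703, plus strand): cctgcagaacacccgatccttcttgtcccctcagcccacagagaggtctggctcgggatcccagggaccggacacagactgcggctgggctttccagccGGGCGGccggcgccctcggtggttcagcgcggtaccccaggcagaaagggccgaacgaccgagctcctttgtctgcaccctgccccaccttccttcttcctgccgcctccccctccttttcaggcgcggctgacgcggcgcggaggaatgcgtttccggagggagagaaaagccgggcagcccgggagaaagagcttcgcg
Itga4 (chr2:79255176-79255475, plus strand): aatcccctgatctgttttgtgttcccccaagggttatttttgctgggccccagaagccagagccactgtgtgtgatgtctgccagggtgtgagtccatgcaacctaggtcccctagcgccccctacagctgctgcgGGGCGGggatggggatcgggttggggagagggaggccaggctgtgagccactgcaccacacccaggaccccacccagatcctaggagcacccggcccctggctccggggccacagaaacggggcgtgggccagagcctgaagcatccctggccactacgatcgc
Itgb5 (chr16:33829415-33829714, plus strand): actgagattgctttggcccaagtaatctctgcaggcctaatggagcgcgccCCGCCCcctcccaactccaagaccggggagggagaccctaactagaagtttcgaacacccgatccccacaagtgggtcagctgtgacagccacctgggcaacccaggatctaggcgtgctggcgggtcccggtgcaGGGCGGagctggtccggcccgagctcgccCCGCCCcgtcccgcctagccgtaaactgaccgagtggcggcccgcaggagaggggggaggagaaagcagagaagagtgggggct

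The GC box stood in 7 of the 9 integrin windows, against 35.7% of all 32851 windows of the same length. Itgb5 held 3 copies, Itga5 held 2, and Itgb1 and Itga4 held 1 each, so the gene that fell carried this motif as well as genes that rose. The windows without it were those of Itga8 and of Itga9, a gene that rose. The integrin windows were rich in G and C, with a median of 64.3% against 52.7% over all windows. The TATA motif TATAAA stood in 0 of the 9 windows, against 13.6% of all windows. The ETS motif CGGAAG stood in 2 of the 9, those of Itgav and Itga3, against 16.9% of all windows. The GATA motif AGATAA and the E-box CACGTG stood in 0 of the 9, against 11.2% and 7.15% of all windows. Motifs were searched on both strands, and none of the matches overlapped another. A match here is a run of letters and not a measured site.

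Fibronectin receptors were described first. Itga5 encodes the alpha subunit that pairs with the beta 1 subunit as the main fibronectin receptor. The brightest Itga5 probe set read 1022 and 1122 signal units in Flk1-positive cells, 412.2 and 360.0 in Flk1 KO embryos, and 438.6 and 366.1 in WT embryos. Both Flk1-positive arrays lay above all embryo arrays, and the Flk1 KO and WT arrays overlapped. In Flk1-positive cells Itga5 stood 1.37 ± 0.16 above WT embryos (2.59-fold; limma adjusted p = 0.00308). A second Itga5 probe set rose by 1.36 ± 0.13 (adjusted p = 0.00192). The remaining one, with embryo means below background, gave 0.33 ± 0.21 and did not pass (adjusted p = 0.32).

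Itga4 encodes the alpha subunit that binds the cell adhesion molecule VCAM-1 as well as fibronectin. The brightest Itga4 probe set read 286.5 and 217.8 in Flk1-positive cells, 176.6 and 111.8 in Flk1 KO embryos, and 128.5 and 114.4 in WT embryos. Flk1-positive arrays were again the highest, with the spread inside the Flk1-positive and Flk1 KO groups wider than in WT. The rise over WT embryos was 0.93 ± 0.24 (1.90-fold; limma adjusted p = 0.0417), and the call ended when any 1 array of either group was dropped (adjusted p = 0.163 without replicate 1 and 0.0697 without replicate 2 of the Flk1-positive cells, 0.125 without WT replicate 1, and 0.168 without WT replicate 2). A second Itga4 probe set read 284.8 and 344.4 in Flk1-positive cells, 100.1 and 127.3 in Flk1 KO embryos, and 57.4 and 62.9 in WT embryos. That probe set rose by 2.03 ± 0.17 (4.10-fold; adjusted p = 0.00117), with the call kept on leaving out each of the 6 arrays. Of the others, 1 was at least 1.75-fold higher (adjusted p = 0.00544), and 1 did not pass (1.75 ± 0.56, adjusted p = 0.0727).

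Laminin receptors are formed by the alpha subunits of Itga3 and Itga6. Itga6, whose subunit pairs with the beta 1 or the beta 4 subunit, read 4174 and 4220 in Flk1-positive cells, 1602 and 1514 in Flk1 KO embryos, and 1853 and 1805 in WT embryos. The arrays of the 3 groups did not overlap for this probe set. Itga6 rose by 1.19 ± 0.12 over WT embryos (2.28-fold; limma adjusted p = 0.00218), and its other probe set was 1.65 ± 0.15 higher (adjusted p = 0.00144). Itga3 read 1941 and 2077 in Flk1-positive cells, 611.2 and 587.8 in Flk1 KO embryos, and 803.1 and 613.5 in WT embryos. Flk1-positive arrays were highest here too, and the lower WT array lay just above the Flk1 KO arrays. Itga3 rose by 1.49 ± 0.17 (2.80-fold; adjusted p = 0.0030). A second Itga3 probe set rose by 1.51 ± 0.19 (adjusted p = 0.00458), and the remaining one did not pass (1.13 ± 0.46, adjusted p = 0.132).

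Itga9 encodes an alpha subunit that pairs with the beta 1 subunit and binds tenascin-C and EMILIN1, and it is known from lymphatic valves. On its brightest probe set Itga9 read 782.6 and 754.5 in Flk1-positive cells, 366.8 and 438.9 in Flk1 KO embryos, and 346.7 and 332.6 in WT embryos. Both Flk1-positive arrays were above the rest, and Itga9 was 1.13 ± 0.14 higher than in WT embryos (2.19-fold; limma adjusted p = 0.00422). A second probe set was 1.39 ± 0.12 higher (adjusted p = 0.00143), while the dimmest did not pass (0.47 ± 0.13, adjusted p = 0.0512). Itgb1 encodes the beta subunit that all of the alpha subunits named so far can use. For Itgb1 the brightest probe set read 3237 and 3259 in Flk1-positive cells, 1913 and 1614 in Flk1 KO embryos, and 1599 and 1544 in WT embryos. The Flk1-positive arrays were close to each other and above all embryo arrays, with a rise of 1.04 ± 0.14 over WT embryos (2.05-fold; adjusted p = 0.00537). A second Itgb1 probe set rose by 1.31 ± 0.15 (adjusted p = 0.00346), and 2 dim ones did not pass (0.67 ± 0.24 and 0.40 ± 0.27, adjusted p = 0.101 and 0.341).

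Itgb3 had the widest log2 difference of the 10 genes. It encodes the beta subunit that joins alpha v as a vitronectin receptor and alpha IIb as the fibrinogen receptor of platelets. For Itgb3 the brightest probe set read 259.1 and 219.3 in Flk1-positive cells, 32.3 and 1.95 in Flk1 KO embryos, and 3.49 and 3.53 in WT embryos. Only the Flk1-positive arrays lay above the background signal of 57.8, so Itgb3 was at least 3.28-fold above WT embryos there (limma adjusted p = 0.00315). The other Itgb3 probe set had 172.8 and 81.1 in Flk1-positive cells, 11.2 and 5.33 in Flk1 KO embryos, and 8.73 and 5.57 in WT embryos. It was at least 1.78-fold higher in Flk1-positive cells (adjusted p = 0.00582). Both Itgb3 probe sets passed the filter, set on the mean over all 6 arrays, only through the Flk1-positive arrays. Their p-values are therefore not independent of the filter, though the brightest one kept its call with no filter.

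The alpha IIb partner, encoded by Itga2b, also rose in Flk1-positive cells. Itga2b read 2457 and 2367 in Flk1-positive cells, 266.4 and 190.2 in Flk1 KO embryos, and 330.1 and 320.8 in WT embryos, a rise of 2.81 ± 0.18 over WT (limma adjusted p = 0.000607). Part of the megakaryocyte and platelet markers rose as well. Of 8 such markers on the array, Itga2b among them, 6 were tested and 4 rose, and the list summed to 4429 and 4197 in Flk1-positive cells, 547.1 and 395.6 in Flk1 KO embryos, and 620.4 and 577.8 in WT embryos. Pf4, a platelet chemokine, had 992.2 and 863.5 in Flk1-positive cells, 120.9 and 31.0 in Flk1 KO embryos, and 96.5 and 80.3 in WT embryos. Itga2b itself made up 2457 and 2367 of the Flk1-positive sums. Gp1bb and Gp6 did not pass (1.16 ± 0.44 and -0.33 ± 0.15, limma adjusted p = 0.113 and 0.173). The call of Gp5 was lost without Flk1-positive replicate 1. Gp9 and Ppbp, which mark platelets, had group means at or below background in all groups. Of 6 tested myeloid markers 4 rose, with sums of 1279 and 1269 in the Flk1-positive arrays, 372.5 and 312.1 in Flk1 KO embryos, and 350.6 and 335.8 in WT embryos. Of 8 tested primitive erythroid markers all 8 rose, summing to 43666 and 45247 in Flk1-positive cells, 421.5 and 292.4 in Flk1 KO embryos, and 1206 and 637.7 in WT embryos. The part of blood cells in the rise of Itgb3, and in that of the other subunits, was not tested.

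Itgb5 went the other way. It encodes a beta subunit that pairs with alpha v as a vitronectin receptor. The brightest Itgb5 probe set read 720.2 and 656.1 in Flk1-positive cells, 1922 and 1511 in Flk1 KO embryos, and 1306 and 1423 in WT embryos. The Flk1-positive arrays were the lowest of the 6, and the Flk1 KO arrays the highest. Against WT embryos the difference was -0.97 ± 0.17 (1.95-fold lower; limma adjusted p = 0.0118), a call that ended without Flk1-positive replicate 2 (adjusted p = 0.0632), without WT replicate 1 (0.0558) or without WT replicate 2 (0.073). Another Itgb5 probe set, with 328.6 and 324.6 in Flk1-positive cells, 936.1 and 857.4 in Flk1 KO embryos, and 851.7 and 772.0 in WT embryos, fell further (-1.26 ± 0.13, adjusted p = 0.00235) and kept its call on leaving out each array. Both remaining probe sets are of a kind whose probes can match transcripts of more than 1 gene. Of these, 1 fell (-0.63 ± 0.13, adjusted p = 0.0193) and 1 did not pass (-0.58 ± 0.17, adjusted p = 0.0571). That fall was lost when any 1 Flk1-positive array or WT array was dropped. Markers of other embryonic tissues fell alongside Itgb5: all 8 epithelial, 8 neuroectodermal and 8 cardiomyocyte markers tested, with a median of -3.23, -3.64 and -3.66 in Flk1-positive cells against WT embryos. All 8 yolk sac endoderm markers fell too (median -1.53), as did 6 of 8 somite markers (-2.15) and 5 of 8 mesenchyme markers (-1.17). Over all genes, 18.1% fell. Dropping some single array ended the calls of Afp, Apoa1, Apob, Apoa4 and Rbp4 (yolk sac endoderm) and Foxc2 (somite). It also ended those of Prrx2 (mesenchyme), Zic2 (neuroectoderm) and Nkx2-5 (cardiomyocyte). With any mean under background raised to it, the yolk sac endoderm and somite medians were -1.17 and -1.34. The neuroectodermal and cardiomyocyte ones were -3.36 and -3.32. The part of these tissues in the Itgb5 result was not tested.

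Itgav and Itga8 did not pass in any tested probe set in Flk1-positive cells against WT embryos. Itgav encodes the alpha v subunit shared by the receptors of Itgb3 and Itgb5. The brightest Itgav probe set read 1805 and 1659 in Flk1-positive cells, 1470 and 1608 in Flk1 KO embryos, and 1631 and 1628 in WT embryos. The difference from WT was 0.09 ± 0.13, with a 95% interval from -0.24 to 0.41 (limma adjusted p = 0.668). The alpha v partner gave no call, while Itgb3 and Itgb5, 2 of the beta subunits it can join, were called in opposite directions. Itgb8, another beta subunit that pairs with alpha v, fell (described below). The difference between subunits was not itself tested. Itga8 encodes the alpha subunit that binds nephronectin, a pairing known from the developing kidney. It had 533.7 and 520.1 in Flk1-positive cells, 703.7 and 808.0 in Flk1 KO embryos, and 514.9 and 713.7 in WT embryos. The WT arrays spanned the Flk1-positive ones, and the difference was -0.20 ± 0.19 with an interval from -0.67 to 0.28 (adjusted p = 0.50).

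**Figure D2:**
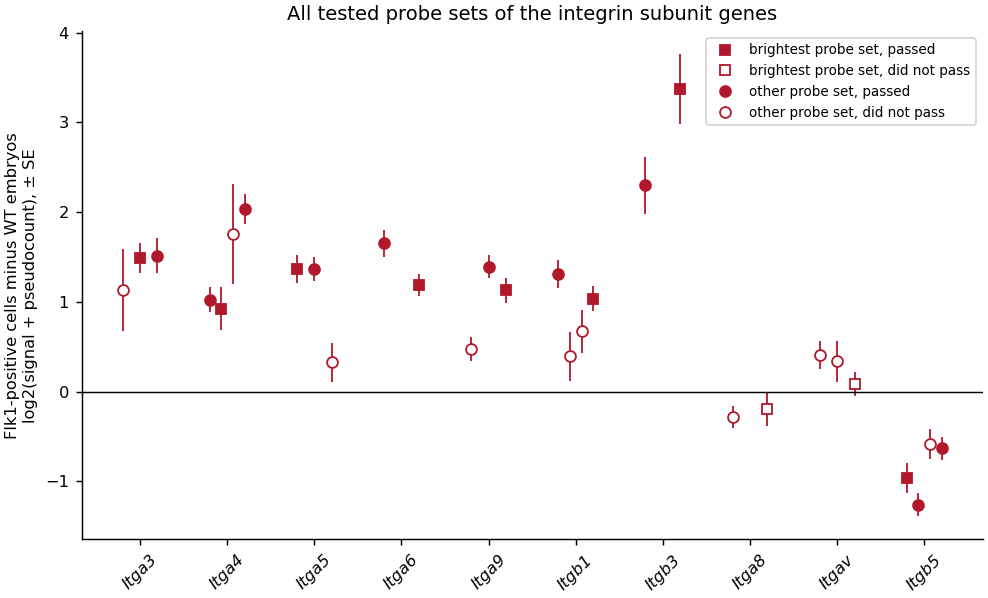
Difference between Flk1-positive cells and WT embryos on the log2(signal + 21.61) scale (vertical axis, ± SE from limma) for each of the 30 tested probe sets of the 10 genes (horizontal axis). Squares are the brightest probe set of a gene, circles its other probe sets, and filled symbols passed the test: 15 probe sets rose, 3 fell, and the other 12 did not pass.

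Probe sets of a gene differed in size more than in direction. Over all 30 tested probe sets, 15 rose and 3 fell in Flk1-positive cells against WT embryos. By the brightest probe set of each gene, 12.6% of all genes rose and 18.1% fell. Shares over all tested probe sets were not counted, here or against Flk1 KO embryos. Within each of the 10 genes every tested probe set had the same sign. Within Itga4 the range was 0.93 to 2.03, and within Itga5 0.33 to 1.37. Probe sets of the same gene share the RNA of the same arrays and are not replicates. Besides those of Itgb5, other tested probe sets are of a kind whose probes can match transcripts of more than 1 gene. They are the brightest Itga5 probe set, the second Itga9 one, and those of Itga3 and Itgb1 that did not pass.

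The comparison of Flk1 KO with WT embryos asks how integrin transcripts stand where the Flk1 gene is disrupted. Of the 10 genes limma called 0, and 0 had an unadjusted p under 0.05 on the brightest probe set. The share of all genes or probe sets at that unadjusted level was not counted, here or for the lists below. Over all 30 probe sets 2 reached that unadjusted level, both with a higher mean in Flk1 KO embryos: the second Itga4 probe set (0.72 ± 0.17, adjusted p = 0.361) and the second Itga8 probe set (0.39 ± 0.12, adjusted p = 0.483). For Itga5 the difference was -0.05 ± 0.16, with a 95% interval from -0.44 to 0.34. For Itgb1 it was 0.16 ± 0.14 (-0.19 to 0.51), for Itga6 -0.23 ± 0.12 (-0.53 to 0.07) and for Itga3 -0.22 ± 0.17 (-0.64 to 0.20). These intervals leave room for differences in either direction, and the missed threshold does not show equal levels. Itgb3, below background in both embryo groups, differed by 0.50 ± 0.39 and is given no fold. Itgb5, Itga9, Itga4, Itga8 and Itgav differed by 0.32 ± 0.17, 0.23 ± 0.14, 0.19 ± 0.24, 0.30 ± 0.19 and -0.08 ± 0.13.

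**Figure D3:**
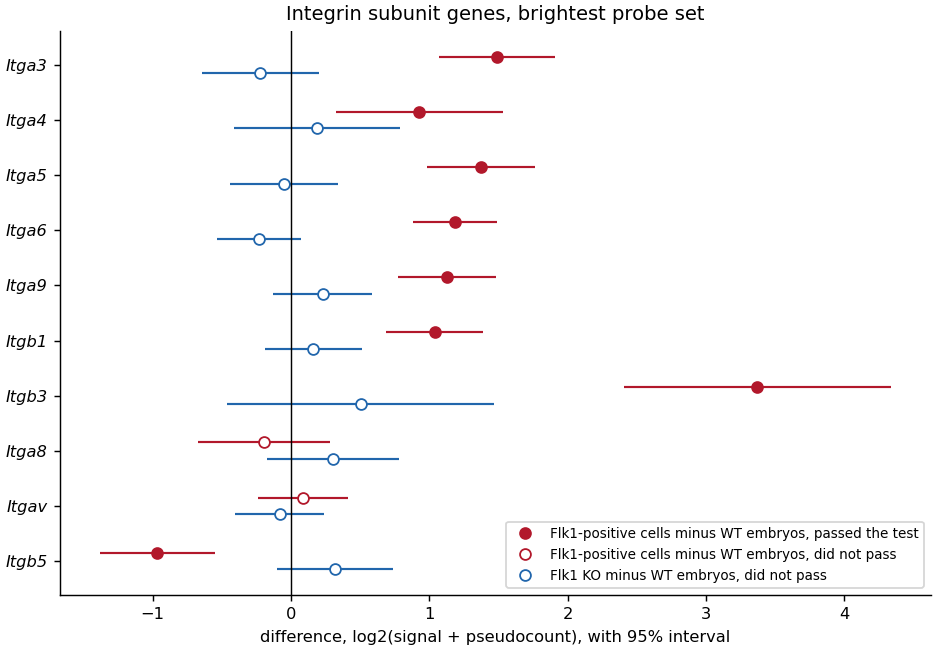
Difference from WT embryos on the log2(signal + 21.61) scale (horizontal axis) of the brightest probe set of each gene, for Flk1-positive cells (red) and Flk1 KO embryos (blue); points are limma estimates with 95% intervals, filled where the test was passed. The red points of 7 genes lie between 0.93 and 3.37 and that of Itgb5 at -0.97, while all 10 blue intervals include 0.

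On the same arrays, part of the endothelial markers fell in Flk1 KO embryos. Of 10, 4 passed the limma test as lower than in WT and all 10 had an unadjusted p under 0.05, with a median difference of -1.67. The 4 calls (Tie1, Esam, Cldn5 and Cd34, adjusted p from 0.0207 to 0.0476) were each lost when any 1 of the 6 arrays was dropped, and the group mean of 6 lay at or below background in Flk1 KO embryos. The 10 integrin subunits had a median difference of 0.17 in that comparison (0.08 with means below background set to that level), against 0.00143 over all genes. Both comparisons with WT embryos use the same WT arrays. Cardiomyocyte markers had a median difference of 0.70 in Flk1 KO embryos, with 0 of 8 called and 5 at an unadjusted p under 0.05, and summed signals of 41311 and 28247 in Flk1 KO against 20666 and 21045 in WT embryos. Their part in the integrin values was not tested.

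Flk1-positive cells were also set against Flk1 KO embryos, to place the embryo groups in the order of levels. Of the 10 genes 6 rose and 1 fell, against 13.3% and 19.6% of all genes, and of the 30 probe sets 15 rose and 5 fell. The rises were 1.71 ± 0.17 for Itga3, 1.43 ± 0.16 for Itga5, 1.42 ± 0.12 for Itga6, 0.90 ± 0.14 for Itga9 and 0.88 ± 0.14 for Itgb1 (limma adjusted p from 0.00112 to 0.00834), and Itgb3 was at least 3.28-fold higher (adjusted p = 0.00484). Itgb5 was lower by -1.28 ± 0.17 (adjusted p = 0.0043). Itga4 did not pass on its brightest probe set (0.74 ± 0.24, adjusted p = 0.0719), though its second one rose by 1.31 ± 0.17 (adjusted p = 0.0042). The brightest one passed under 6 of 16 alternative settings, the replicate block among them (adjusted p = 0.0373). Itga8 did not pass on its brightest probe set (-0.50 ± 0.19, adjusted p = 0.108), while its other probe set fell by 0.67 ± 0.12 (adjusted p = 0.0117), a call that ended without either Flk1-positive array. Itgav differed by 0.17 ± 0.13 (adjusted p = 0.378). The order of means was thus Flk1-positive cells first for all the genes that rose and last for Itgb5 and Itga8, with Flk1 KO and WT embryos as neighbours whose difference did not pass the test for any of the 10 genes.

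The other integrin subunits on the array were mostly dim. Of 16 further subunits 14 were on the array and 9 were tested, and 8 of the 14 had means at or below background in Flk1-positive cells. Of the 9, 4 rose and 1 fell in Flk1-positive cells against WT embryos, beside 12.6% and 18.1% of all genes, with a median of 0.17. Itga1, a collagen receptor subunit, had 474.1 and 509.4 in Flk1-positive cells, 39.5 and 44.0 in Flk1 KO embryos, and 31.3 and 68.4 in WT embryos, and was at least 6.46-fold higher than in WT (limma adjusted p = 0.00154). Itgb2, the beta subunit of white blood cell integrins, had 209.4 and 170.3 in Flk1-positive cells, 30.1 and 2.80 in Flk1 KO embryos, and 5.19 and 8.40 in WT embryos. It was at least 2.65-fold higher than in WT (adjusted p = 0.00417). Like Itgb3, Itgb2 passed the filter on low signal only through the Flk1-positive arrays. Itga2, another collagen receptor subunit, was at least 1.45-fold higher (adjusted p = 0.0183), a call that ended when any 1 array of those groups was dropped. Itga2b was the remaining rise. Itgb8, a beta subunit that pairs with alpha v and is known from the neuroepithelium, fell, with 69.3 and 105.1 in Flk1-positive cells, 378.4 and 594.3 in Flk1 KO embryos, and 509.5 and 545.6 in WT embryos (-2.35 ± 0.27, adjusted p = 0.00306). Itga10, Itgae, Itgal and Itgax did not pass, with differences of 0.17 ± 0.30, -0.42 ± 0.21, 0.15 ± 0.45 and -0.16 ± 0.19. In Flk1 KO against WT embryos limma called 0 of the 9, with 1 at an unadjusted p under 0.05, Itga2b with a lower mean (-0.49 ± 0.18, adjusted p = 0.547).

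Of 28 integrin ligand genes tested, 12 rose and 4 fell in Flk1-positive cells against WT embryos, beside 12.6% and 18.1% of all genes, with a median of 0.40 (0.29 with means below background set to that level). Of these calls, the rises of Tnc, Thbs1, Mfge8 and Ccn2 and the fall of Lama1 were lost when any 1 Flk1-positive or WT array was dropped, and the fall of Lama5 without replicate 1 of either group. Nid1, a basement membrane linker, had 7579 and 8147 in Flk1-positive cells, 295.6 and 383.5 in Flk1 KO embryos, and 526.6 and 558.0 in WT embryos, a rise of 3.81 ± 0.16 (limma adjusted p = 0.000402). Tgfb1, whose latent form is bound by alpha v integrins, rose by 3.66 ± 0.18 (adjusted p = 0.000448). In Flk1 KO embryos Nid1 and Tgfb1 differed from WT by -0.65 ± 0.16 and -0.87 ± 0.18 and did not pass (adjusted p = 0.394 and 0.307). Npnt, the nephronectin ligand of Itga8, had 89.6 and 80.5 in Flk1-positive cells, 947.5 and 979.6 in Flk1 KO embryos, and 866.8 and 921.4 in WT embryos (-3.10 ± 0.13, adjusted p = 0.000402). Vtn, which encodes vitronectin, was at least 2.33-fold lower in Flk1-positive cells (adjusted p = 0.000567), with 7.28 and 13.4 there, 170.4 and 177.4 in Flk1 KO embryos, and 176.4 and 151.5 in WT embryos. Fn1, the fibronectin gene itself, was singled out after its values were seen as the ligand of Itga5, and it rose by 1.45 ± 0.14 (adjusted p = 0.00177). Lama4, a laminin chain gene also named after its values were seen, rose by 3.34 ± 0.16 (adjusted p = 0.000422). Lama1 and Lama5 fell, and the other laminin chains tested gave no call. In Flk1 KO embryos limma called 0 of the 28, with 8 at an unadjusted p under 0.05, 5 with higher and 3 with lower means.

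Genes of the adhesion site, which link integrins to actin, signal from them or switch them on, were called higher more often than lower. Of 34 tested, 18 rose and 1 fell in Flk1-positive cells against WT embryos, beside 12.6% and 18.1% of all genes, with a median of 0.69. Of the 18 rises, those of Lims1, Parvb, Zyx and Rap1a were lost when any 1 Flk1-positive or WT array was dropped, and that of Itgb1bp1 without WT replicate 2. Fermt3, the kindlin of blood cells, which activates integrins, had 3545 and 3675 in Flk1-positive cells, 84.8 and 81.3 in Flk1 KO embryos, and 161.4 and 154.7 in WT embryos, a rise of 4.34 ± 0.12 over WT (limma adjusted p = 0.000402); in Flk1 KO embryos it differed from WT by -0.78 ± 0.12 and did not pass (adjusted p = 0.181). Cd47, a membrane partner of beta 3 integrins, rose by 2.27 ± 0.13 (adjusted p = 0.000506), with 2393 and 2287 in Flk1-positive cells, 491.5 and 480.2 in Flk1 KO embryos, and 441.1 and 493.7 in WT embryos. Tln2, a talin that links integrins to actin, was lower by -0.83 ± 0.13 (adjusted p = 0.00849), a call that ended without Flk1-positive replicate 1 or WT replicate 2 (adjusted p = 0.0517 and 0.0603). The other talin gene of the list, Tln1, was named after its values were seen. It rose by 1.77 ± 0.14 over WT embryos (adjusted p = 0.000938). In Flk1 KO embryos limma called 0 of the 34, with 3 at an unadjusted p under 0.05 and a median of -0.05.

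**Figure D4:**
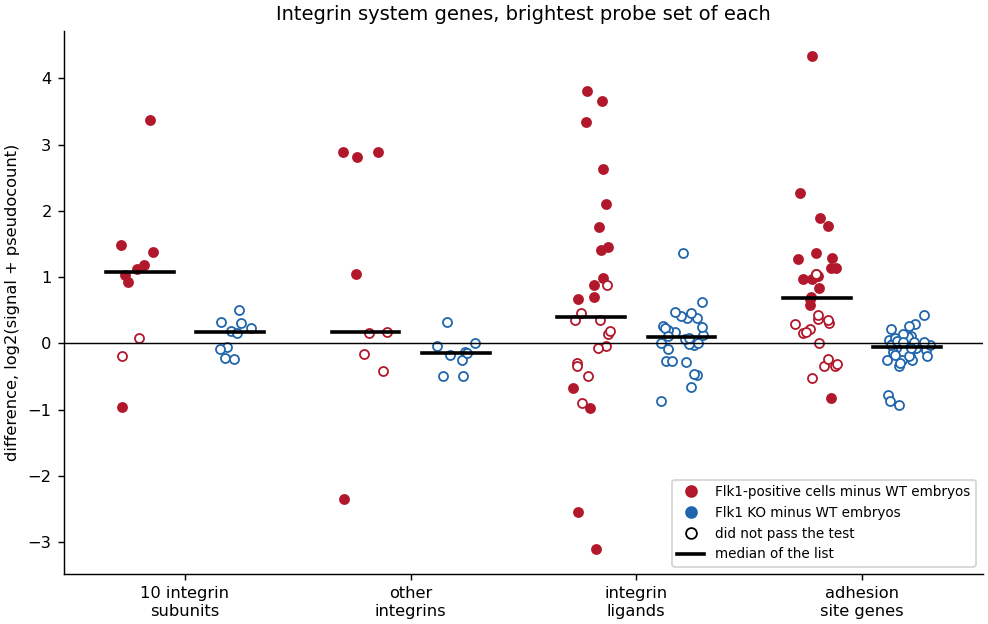
Difference from WT embryos on the log2(signal + 21.61) scale (vertical axis) of each tested gene in 4 lists (horizontal axis), for Flk1-positive cells (red) and Flk1 KO embryos (blue), on the brightest probe set; filled points passed the limma test and black bars are list medians. In Flk1-positive cells 7 of 10 integrin subunits, 4 of 9 other integrins, 12 of 28 ligands and 18 of 34 adhesion site genes rose, and no blue point is filled.

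The genes most like the extreme members were found by the distance between log2 values over the 6 arrays, after each probe set's own mean was taken off. For Itgb3 they were Itgb2 (distance 0.51), the lymphoid transcription factor gene Ikzf1 (0.57), the adhesion site gene Tns2 (0.60), the innate immune receptor gene Tlr4 (0.67) and the immediate early gene Fosb (0.71). For Itgb5 they were Polr1c (0.15), Natd1 (0.18), Metrn (0.19), Scd1 (0.19) and Dach2 (0.19). The 6 arrays form 3 groups, so a distance is set mostly by the group means. Distances of the 2 genes are not comparable, since Itgb3 spans a wider range.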

How the data were processed

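RNA purified on RNeasy Micro columns was hybridised to Affymetrix arrays, per the labels' protocols. The deposited values are linear signal values of 45101 probe sets per array; the trimmed mean (2% off each end) was 500.0 on every array, so the authors' values were scaled before deposit, by a program not given in the sources used here. Symbols came from the platform annotation, and all 10 were found in the RefSeq table through their gene ID.

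Signals were analysed as log2(signal + 21.61), the pseudocount being the 25th percentile of all values. The scale was kept because array medians lay within 0.15. After removal of 64 control probe sets and of probe sets whose mean fell below the 25th percentile of means, 33765 were tested. The test was limma's moderated one (version 3.58.1, R 4.3.3), fitted over all 6 arrays with group as the only term. It had 3 residual degrees of freedom and 2.46 from the prior, and p-values were adjusted by Benjamini-Hochberg. A gene is represented by its brightest probe set over the 6 arrays. Background is the array average of the 95th percentile over 77 probe sets of olfactory or vomeronasal receptors (a signal of 57.8); where the dimmer mean lies below it, a fold is a lower bound. Named genes were all members, every other integrin tested, the 2 largest calls per direction of each list, and the 5 nearest genes to the largest rise and fall. Fn1, Lama4 and Tln1 were added after their values were seen. The members and lists were chosen with earlier results of these data known. Figures used matplotlib 3.10.9. The fit was tested on simulated data for the comparison of Flk1-positive cells with WT embryos. Where a 2-fold difference had been built in, the test found 13% of the cases. At 4-fold the share found was 59%. Among the 77 calls made, 5 were false. Differences of these sizes can thus be missed, and a gene without a call may still differ.

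Alternatives were the pseudocount (10th percentile, median), the filter (none, 50th percentile), an intensity trend with robust prior, quantile normalization, centring on medians, a fit of 2 groups alone, the replicate block, a gene's median across its probe sets and leaving out each array.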

Additional observations from a re-analysis of the deposited data

How the results depend on the processing

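Of the 15 calls on the brightest probe sets over the 3 comparisons, 13 kept their direction and call under all 16 alternatives each; the others were Itga4 (also lost with the smaller pseudocount and with no filter, adjusted p = 0.0582 and 0.0604) and Itgb5, both in Flk1-positive cells against WT embryos. The count of genes lower in that comparison ranged from 0 to 1 on leaving out single arrays. The count lower in Flk1-positive cells than in Flk1 KO embryos was 2 with an intensity trend and robust prior and 2 with the median over probe sets, Itga8 being the addition. Itga4, not called in that comparison, passed under 6 of 16 alternatives: the larger pseudocount, the stricter filter, the intensity trend, the replicate block, the median over probe sets and without Flk1 KO replicate 1 (adjusted p from 0.00576 to 0.0427). Uncalled differences changed sign as follows, the causes not tested. In Flk1 KO against WT embryos Itga3 was 0.074 and Itgav 0.28 with the median over probe sets, and Itga5 was 0.048 and Itgav 0.019 with median centring, which moved the median of all genes by 0.10 there. Leaving out single arrays gave -0.10 to 0.47 for Itga4, -0.18 to 0.070 for Itga5 and -0.092 to 1.10 for Itgb3 in that comparison, and -0.42 to 0.032 for Itga8 in Flk1-positive cells against WT embryos.

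Same-numbered arrays shared only a number: their deviations from the group means correlated at 0.01 to 0.03. With the replicate block 1675 genes rose and 2366 fell in Flk1-positive cells against WT embryos (1886 and 2708 without it), and among the 10 integrin genes 7 rose and 1 fell, as before. Over all genes, single arrays moved these counts down to 1102 higher and 1293 lower, and the number lower in Flk1 KO embryos ranged from 0 to 82 over the alternatives (23 as reported). No detection calls were used, and dim probe sets give bounds only.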
